A study of Manacus vitellinus and Taeniopygia guttata with 24 samples.

Results

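The 10 genes described here were higher in a shoulder muscle than in the main flight muscle of every zebra finch, while on average they were at about the same level in both muscles of the golden-collared manakin. They were chosen by their measured levels, in RPKM (reads divided by the length of the gene and by the sequencing depth of its library). A gene was taken when the scapulohumeralis caudalis (SH) held at least 2 times the RPKM of the pectoralis (PEC) in each of 6 finches, when the mean of finch SH was 5 RPKM or more, when the mean over the 12 manakin libraries was 5 RPKM or more, and when the mean of manakin SH was less than 25% above the mean of manakin PEC. Of the 14926 genes listed in any library, 10 met this rule. The muscle differences, the levels and the contrast between the species chose these genes, so they are given as a description, with no test. The rule named no treatment difference, and these differences are tested below, but they are not independent of it: a gene could meet a level or ratio through 1 treatment group alone, and where that happened it is said beside the result.

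The PEC is the large breast muscle that drives the downstroke of the wing, and the SH is a small muscle behind the shoulder that pulls the wing back towards the body. Male manakins court with fast wing movements that make mechanical sounds, in which the SH takes part, whereas zebra finches court by song and have no such wing display. Androgens such as testosterone act in muscle through the androgen receptor, a transcription factor that changes the activity of its target genes when the hormone binds, and flutamide is a drug that blocks this receptor.

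Messenger RNA was sequenced from both muscles of 6 males of each species, 3 in each treatment group, which gave 24 libraries. Male manakins (Manacus vitellinus) carried an implant of testosterone (+T) or a blank implant (-T). Male zebra finches (Taeniopygia guttata) received a flutamide implant or a blank one and were all given testosterone on the next day, so both finch groups carried testosterone and are called flutamide and T-only. The protocol text and the titles give this reading of the finch groups, while another label field describes the flutamide birds as lacking testosterone. The SH and the PEC library with the same treatment and number came from 1 bird, per the bird codes of the deposited files.

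Reads in genes numbered 7807486 to 13571926 a library in manakin and 9644888 to 16487174 in finch. The manakin lists carry zebra finch identifiers too, so manakin reads were counted on genes of another species, and levels set side by side between species carry the error of that match. The second +T library of manakin SH stood apart, with 349 genes at 10 RPKM or more that were over 8-fold above all other manakin libraries, against 0 to 4 such genes in each of the others. No file pairs these identifiers with names, and 0 of them are in the reference table used here. The 10 genes are therefore given by identifier, without a function, and the muscles could not be checked against marker genes. All 10 are named because each is accounted for. In whole muscle, fewer cells of a type and less RNA per cell cannot be told apart.

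The rule kept few genes of a larger finch pattern. In finch, 1373 genes met the 2-fold criterion in 6 of 6 birds, but a bird in which the gene was listed in neither muscle also passed. This count therefore includes genes near the floor. Of the 1373, 113 had a mean of 5 RPKM or more in SH, and 79 of those reached 5 RPKM in manakin as well. The other 34 had a manakin mean below 5 RPKM, and 13 of them were listed in no manakin library. Among the 79 genes the manakin ratio of means had a median of 2.08. SH was at 2 times PEC or more in 45 genes, at least 25% above but under 2 times in 24 genes, and less than 25% above in the 10 genes described, which is 12.7% of the 79. Over all 6226 genes with a manakin mean of 5 RPKM or more, the median ratio was 1.23 and 52.1% were under the 25% limit. The 10 genes are the low end of the manakin ratios of the 79, with no gap between them and the next gene, as the plot of the ratios in both species shows.

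**Figure D1:**
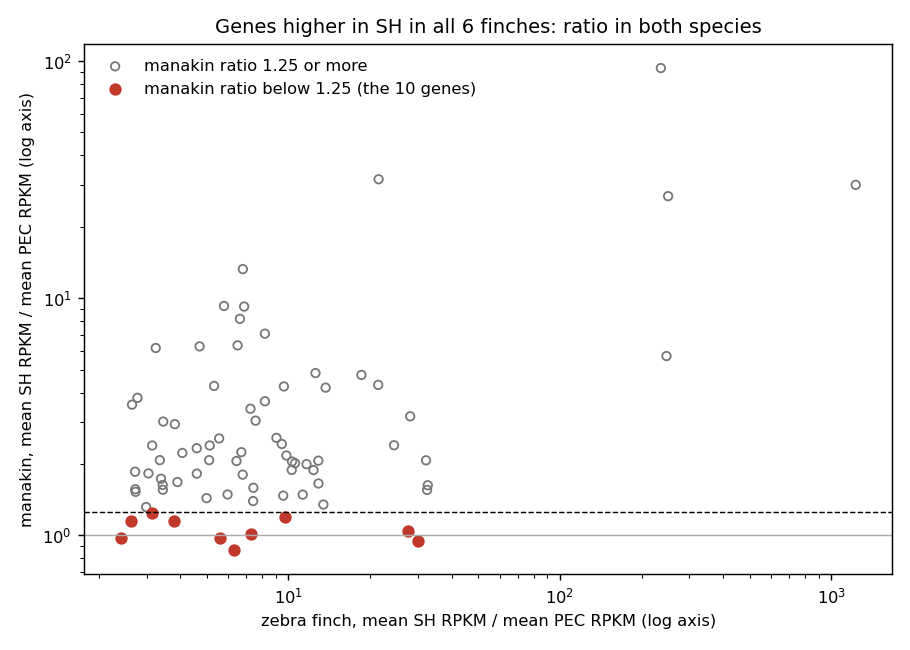
Ratio of mean SH to mean PEC RPKM in zebra finch (horizontal) and manakin (vertical), both on log axes, for the 79 genes that met the finch and level criteria; 1 gene whose manakin PEC mean was 0 is not drawn. Filled points are the 10 genes under the 25% limit (dashed line), open points the other genes, and the solid line marks equal means; the filled points lie between 0.868 and 1.246 on the vertical axis and spread from 2.41 to 29.9 on the horizontal one.

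At the edges of the rule, the smallest bird ratio of a chosen gene in finch was 2.01, in ENSTGUG00000000884, and the nearest gene left out, ENSTGUG00000007550, had a smallest ratio of 1.99. On the manakin side, ENSTGUG00000006125 was just inside with a ratio of 1.246, and ENSTGUG00000001883 was just outside with 1.32. Another 26 genes failed the finch fold alone while 5 of 6 birds were at 2 or more. The number of genes ranged from 9 to 20 when 1 bird of either species was left out, the highest without flutamide bird 3. After median-ratio scaling of the libraries 10 genes met the rule, and 6 of them were the same.

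Of the 10 genes, 4 were abundant in both species, and their manakin level lay between the finch PEC and finch SH means. ENSTGUG00000000590 was the most abundant of the 10 in finch. In finch SH it was at 508, 538 and 557 RPKM in the T-only birds and at 553, 529 and 423 in the flutamide birds, and in finch PEC at 234, 197 and 202 in T-only and 200, 262 and 192 in flutamide. The 2 muscles of the finch did not overlap, and the ratio of the bird was 2.02 to 2.77. In manakin the muscle means were nearly equal, 503 ± 206 RPKM in SH and 518 ± 358 in PEC (SD over 6 birds). These SDs, far larger than in finch, pool treatment groups that did not overlap in either muscle. The ratio of mean SH to mean PEC was 1.49 for +T birds alone and 0.833 for -T birds alone. Within a treatment group, the SD was 4.14% of the mean for -T SH. It was 24.6% to 29.2% in the other manakin groups, against 4.59% to 17.5% in finch groups.

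ENSTGUG00000001343 had the widest gap of these 4 in finch. It was at 191, 374 and 229 RPKM in T-only SH, 212, 285 and 176 in flutamide SH, 32.5, 48.6 and 26.4 in T-only PEC and 33.5, 23.5 and 37.9 in flutamide PEC. All 6 finches had at least 4.64 times more in SH. Manakin SH had a mean of 163 ± 87.8 RPKM and manakin PEC 160 ± 44.8 (SD, n = 6 each), and single manakins ranged from 0.536 to 2.16 in their SH to PEC ratio.

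ENSTGUG00000006125 was at 134 to 223 RPKM in finch SH and 34 to 98.7 in finch PEC over 6 birds, with medians of 206 and 62.2. Its manakin means were 75.6 ± 42.5 RPKM in SH and 60.7 ± 48.0 in PEC (SD over 6 birds). Manakin SH was thus at 0.390 times the finch SH mean, and manakin PEC at 0.987 times the finch PEC mean of 61.5. The manakin PEC mean pools 20.1 ± 8.43 RPKM in +T and 101 ± 27.6 in -T (SD, n = 3 each), neither of them near the finch mean. By means over both treatments, this was the only one of the 10 genes in which manakin was not above finch in PEC. ENSTGUG00000000884 was at 91.2 to 147 RPKM in finch SH and 33.1 to 57.1 in finch PEC. Its manakin means were 79.6 ± 27.9 RPKM in SH and 69.4 ± 25.4 in PEC (SD over 6 birds).

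In the other 6 genes, the means of both manakin muscles were above the mean of finch SH. For ENSTGUG00000008854 this rested on 1 manakin bird, as given below. ENSTGUG00000002439 was the extreme case. It was at 0.734, 0.527 and 0.848 RPKM in finch T-only PEC and 0.233, 0.238 and 0.0792 in flutamide PEC, and finch SH was at 48.1, 13.3 and 6.99 in T-only and 1.89, 1.83 and 1.32 in flutamide. In manakin the same identifier was at 1129, 1112 and 571 RPKM in +T PEC, 1244, 709 and 1418 in -T PEC, 1299, 247 and 854 in +T SH and 1837, 1597 and 634 in -T SH. The manakin PEC mean was 2325 times the finch PEC mean and the manakin SH mean 88.1 times the finch SH mean. Recovered reads were 4 to 27 for each finch PEC library and 8219 to 60651 for each manakin library, a gap far larger than the counting error. How well manakin reads match this identifier was not tested.

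ENSTGUG00000005888 had the highest ratio of means in finch, 29.9. Finch SH was at 68.6, 53.7 and 45.1 RPKM in T-only and 21.2, 52.1 and 43.8 in flutamide, and finch PEC at 2.77, 1.03 and 3.08 in T-only and 0.358, 1.30 and 0.972 in flutamide. The finch PEC values rest on 2 to 16 reads a library, and the lowest of them, 0.358 RPKM, has a 95% Poisson interval of 0.0433 to 1.29 (counting error only). In manakin the mean was 174 ± 198 RPKM in SH and 183 ± 173 in PEC (SD over 6 birds). The highest manakin library was 19.8 times the lowest.

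ENSTGUG00000003948 was at 12.8, 29.7 and 7.33 RPKM in finch T-only SH, 3.62, 1.98 and 2.85 in flutamide SH, and 0.521 to 1.68 in the 6 finch PEC libraries. Its manakin means were 115 ± 26.0 RPKM in SH and 96.2 ± 63.6 in PEC (SD over 6 birds), which is 11.9 times finch SH and 96.0 times finch PEC. ENSTGUG00000002406 was the steadiest of the 10 in manakin, at 22.6 to 48.9 RPKM in SH and 21.1 to 33.9 in PEC, while finch SH was at 3.88 to 13.6 and finch PEC at 1.07 to 4.11. ENSTGUG00000010073 had the lowest manakin ratio, 0.868, from means of 48.2 ± 21.0 RPKM in SH and 55.5 ± 37.8 in PEC (SD over 6 birds). In finch it was at 3.20 to 12 RPKM in SH and 0.277 to 2.64 in PEC, the PEC values resting on 3 to 26 reads.

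ENSTGUG00000008854 met the manakin level through 1 bird. The second +T manakin had 235 RPKM in PEC and 228 in SH, and the other 10 manakin libraries had 0.737 to 11.9. That bird held 92.9% of the summed manakin RPKM of the gene. Without it the manakin mean was 3.53 RPKM over 10 libraries, below the level of the rule, and the gene was not chosen. The high value appeared in both muscles of the bird and not in its SH library alone, which is the library that stood apart. In finch the gene was at 30.3, 6.28 and 8.56 RPKM in SH of T-only birds and 7, 5.14 and 6.95 in flutamide SH, against 1.23 to 2.99 in PEC.

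**Figure D2:**
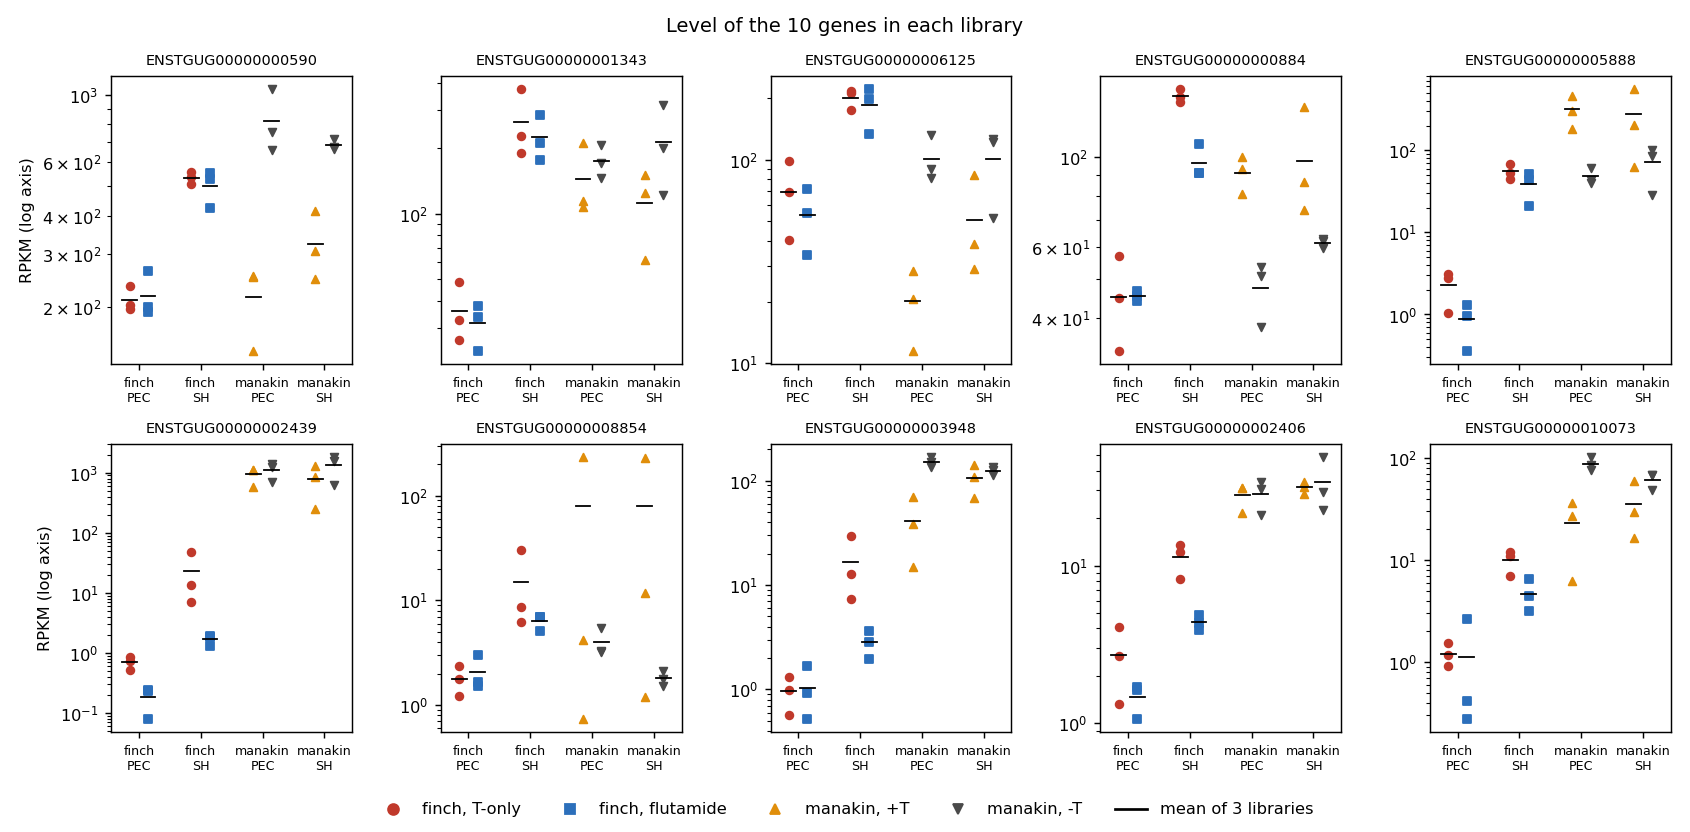
RPKM (log axis, a separate scale for each gene) of the 10 genes in each library, by species and muscle; symbols mark the treatment and black bars the mean of 3 libraries. All finch SH values lie above all finch PEC values in every panel but that of ENSTGUG00000002406, whose muscles overlap between birds; in ENSTGUG00000002439 both manakin muscles lie between 247 and 1837 RPKM, and in ENSTGUG00000008854 the second +T manakin stands at 235 and 228 RPKM, above the other 10 manakin libraries.

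The position of the manakin level was compared with that of the 69 genes that met the same finch and level criteria but had manakin SH at least 25% above PEC. The manakin mean was above finch SH in 6 of the 10 genes and in 29 of the 69 (42.0%), between the finch means in 4 and in 38, and below finch PEC in 0 and in 2. With 10 genes this is a description, and no difference is claimed. Recovered gene length in finch was 351 to 2672 bases in the 10 genes, with a median of 1522. The median was 1029 in the 69 genes and 1218 over the 5450 genes with a finch mean of 5 RPKM or more. The same lengths were used for the 10 genes in manakin, whose reads were counted on finch identifiers, so the lengths of the manakin genes were not measured. Summed over the 10 genes, the share of all RPKM was 0.0417% to 0.0567% in finch PEC, 0.141% to 0.221% in finch SH, 0.192% to 0.336% in manakin PEC and 0.154% to 0.408% in manakin SH. The finch muscles did not overlap in this share and the manakin muscles did. ENSTGUG00000002439 made up much of the manakin sum: without it the share was 0.0959% to 0.224% in manakin PEC and 0.123% to 0.207% in manakin SH, against 0.141% to 0.218% in finch SH.

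Within single birds, the manakin ratios were scattered on both sides of 1 rather than close to it. Of the 60 ratios (10 genes in 6 manakins), 32 were above 1, 8 were 2 or more and 6 were 0.5 or less, with a range of 0.203 to 16.1. The highest was that of ENSTGUG00000008854 in +T bird 3, whose PEC value rests on 12 reads. This gene, low outside the second +T bird, also gave ratios of 0.475, 0.327 and 0.287. The second +T bird, whose SH library stood apart, gave 3 of the 8 ratios of 2 or more. It also gave 2 of the 6 ratios of 0.5 or less, the lowest among them. No gene was above 1 in all 6 manakins, and 6 of the 10 genes reached 2 in at least 1 manakin. The mean ratio near 1 is an average over birds that differed, not a sign of equal muscles in each manakin. The 60 finch ratios were 2.01 to 65.5, and ENSTGUG00000001343, ENSTGUG00000005888 and ENSTGUG00000002439 were above 3 in every finch. In manakin, 9, 5 and 6 of the 10 genes had a ratio above 1 in the 3 +T birds, and 3, 3 and 6 in the 3 -T birds.

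**Figure D3:**
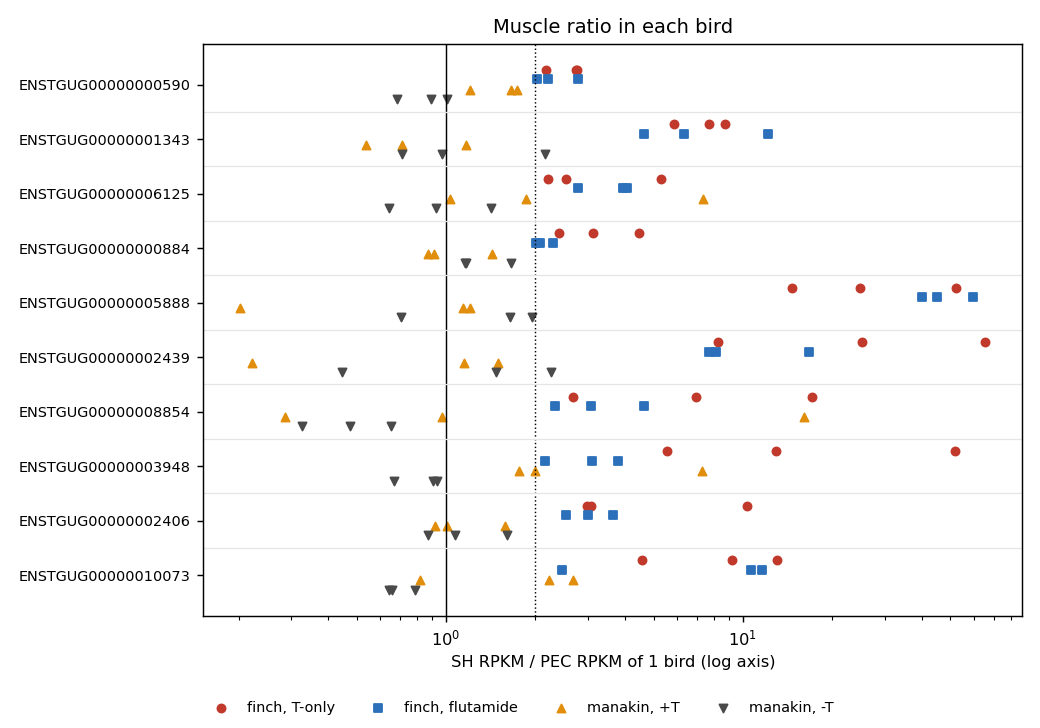
SH RPKM divided by PEC RPKM of the same bird (log axis) for each of the 10 genes; circles are T-only and squares flutamide finches, upward triangles +T and downward triangles -T manakins, with a solid line at 1 and a dotted line at 2. All 60 finch points lie at 2.01 or above, while the 60 manakin points run from 0.203 to 16.1, the highest resting on 12 reads in PEC.

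Treatment differences were tested with limma on log2(RPKM + 1), with Benjamini-Hochberg adjustment over all genes of a species that passed a filter on low values, and calls were made at an adjusted p below 0.05. All 10 genes passed the filter in both species. On this scale the change of genes at low levels is understated. The labels treat the 3 birds of a group as separate samples.

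In finch SH, 3 of the 10 genes were called higher in T-only than in flutamide and 0 lower, beside 6.13% called higher and 0.0625% called lower among all 9606 genes tested. These shares are 589 genes higher and 6 lower. With median-ratio scaling, 283 of all genes were called higher and 31 lower, and 2 of the 10 genes were called higher. ENSTGUG00000002439 averaged 22.8 ± 22.1 RPKM in the T-only birds and 1.68 ± 0.312 in the flutamide birds (SD, n = 3 each; log2 difference 2.73 ± 0.48, SE; limma adjusted p = 0.00615). ENSTGUG00000003948 was at 16.6 ± 11.6 RPKM against 2.81 ± 0.821 (SD, n = 3 each; log2 difference 2.02 ± 0.41, SE; limma adjusted p = 0.0115). ENSTGUG00000002406 was at 13.6, 12.2 and 8.19 RPKM in the T-only birds and 4.88, 3.88 and 4.33 in flutamide (log2 difference 1.18 ± 0.30, SE; limma adjusted p = 0.0357). In these 3 genes the lowest T-only bird was above the highest flutamide bird, and the T-only birds of ENSTGUG00000002439 and ENSTGUG00000003948 differed widely among themselves, the high bird being T-only bird 1 in the former and T-only bird 2 in the latter.

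The selection bears on this count. All 3 called genes, and ENSTGUG00000010073, had a flutamide mean below 5 RPKM in SH, so they met the level of the rule only through the T-only libraries and had to be higher there. Of the 6 genes with a flutamide mean of 5 RPKM or more, 0 were called (limma adjusted p of 0.164 to 0.863). The count of 3 is thus not evidence about the 10 genes as a group. The same holds for the median and for the counts of groups that did not overlap and of positive differences, given below. ENSTGUG00000002439 passed in all 13 alternatives tried. ENSTGUG00000003948 was no longer called without flutamide library 2 (limma adjusted p = 0.0562) or without T-only library 1 (limma adjusted p = 0.0559), and ENSTGUG00000002406 was called in 3 of 13 alternatives (adjusted p of 0.0255 to 0.190) and lost its call with median-ratio scaling and without each of the 3 flutamide libraries and T-only libraries 1 and 2.

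Among the genes not called in finch SH, ENSTGUG00000000884 was at 147, 137 and 140 RPKM in the T-only birds and 108, 91.5 and 91.2 in flutamide, with no overlap of the groups (log2 difference 0.55 ± 0.21, SE, limma adjusted p = 0.164). ENSTGUG00000010073 was at 10.9, 12 and 7 RPKM against 6.47, 3.20 and 4.40, again without overlap (log2 difference 0.95 ± 0.38, SE, limma adjusted p = 0.179). In all, T-only lay wholly above flutamide in 5 of the 10 genes, beside 23.1% of all genes, and 0 lay wholly below, beside 3.83%. These 5 are ENSTGUG00000000884 and the 4 genes that met the level only through T-only. The 3 most abundant genes had the smallest log2 differences, 0.10 ± 0.20 in ENSTGUG00000000590, 0.20 ± 0.31 in ENSTGUG00000001343 and 0.15 ± 0.34 in ENSTGUG00000006125 (SE). The median log2 difference was 0.70 in the 10 genes and 0.21 over all genes, with all 10 positive, beside 69.4% of all genes. With median-ratio scaling the medians were 0.44 and -0.01, with 7 of the 10 positive, beside 49.2% of all genes. The 69 genes that met the same finch and level criteria had a higher median, 1.24. In these, 60 were positive, beside 69.4% of all genes, and 31 were called higher, beside 6.13%. Of the 69, 15 had a flutamide mean below 5 RPKM in SH, so they too had to be higher in T-only. How many of the called genes are among these 15 was not counted, so no conclusion about the 69 genes is drawn from these values.

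In finch PEC, none of the 10 genes was called, and 0% of the 9606 genes were called in either direction with limma (514 at an unadjusted p below 0.05, and 0 called with limma-voom on recovered reads, 517 below 0.05 unadjusted). The smallest p among the 10 was that of ENSTGUG00000005888, with 2.29 ± 1.11 RPKM in the T-only birds and 0.876 ± 0.478 in the flutamide birds (SD, n = 3 each; log2 difference 0.78 ± 0.37, SE; limma adjusted p = 0.926). ENSTGUG00000002439, called in SH, was also higher in each T-only PEC library than in any flutamide one, at 0.703 ± 0.163 RPKM against 0.183 ± 0.0903 (SD, n = 3 each), but its log2 difference of 0.52 ± 0.48 did not pass (SE; limma adjusted p = 0.988). It was the only one of the 10 genes with T-only PEC wholly above flutamide, beside 5.11% of all genes, and 0 were wholly below, beside 3.3%.

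Whether the treatment difference was larger in finch SH than in PEC was tested by the interaction, and 0% of genes passed in either direction with limma (706 at an unadjusted p below 0.05, and 0 called with limma-voom on recovered reads, 442 below 0.05 unadjusted). This fit did not pair the 2 muscles of a bird. With the bird as replicate block, 0 genes were called and 960 had an unadjusted p below 0.05. ENSTGUG00000003948 had an interaction of 2.05 ± 0.58 on the log2 scale (SE; limma adjusted p = 0.351) and ENSTGUG00000002439 one of 2.21 ± 0.67 (SE; limma adjusted p = 0.374). The latter was 1.70 with a pseudocount of 0.1 and 1.31 with limma-voom, and the former 2.36 and 2.43. A treatment difference particular to the finch SH was therefore not shown for any of the 10 genes. Both named genes met the finch SH level only through the T-only libraries, so their interactions are not independent of the selection.

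In manakin PEC, 1 of the 10 genes was called lower in +T and 0 higher, beside 0.267% called lower and 0.133% called higher among all 8989 genes tested (12 higher and 24 lower, and 22 higher and 21 lower with median-ratio scaling). The called gene was ENSTGUG00000000590, at 251, 253 and 143 RPKM in +T PEC and 757, 1048 and 658 in -T PEC. The means were 216 ± 63.0 and 821 ± 202 RPKM (SD, n = 3 each), and the log2 difference was -1.94 ± 0.28 (SE; limma adjusted p = 0.0218). The call was kept in 7 of 13 alternatives (adjusted p of 0.0219 to 0.0942). It was lost in the fit on the 6 PEC libraries (limma adjusted p = 0.0722) and without any 1 of the 3 -T libraries (0.0751 to 0.0942) or without +T library 1 or 2 (0.0647 and 0.0634).

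The selection bears on this comparison as well. In +T birds alone, SH was 25% or more above PEC in 4 genes, with ratios of means of 1.49 in ENSTGUG00000000590, 2.51 in ENSTGUG00000006125, 2.57 in ENSTGUG00000003948 and 1.53 in ENSTGUG00000010073. These met the manakin limit only through the -T birds, and they are the same 4 genes in which +T PEC lay wholly below -T PEC. In -T birds alone the ratio exceeded the limit in ENSTGUG00000000884, at 1.30, and ENSTGUG00000005888, at 1.47, the 2 genes in which +T PEC lay wholly above. The remaining 4 genes were under the limit in both groups, and in these the manakin PEC groups overlapped. Among these 4, ENSTGUG00000008854 met the manakin level only through the second +T bird. Its -T means were 1.81 RPKM in SH and 3.97 in PEC. Counts of manakin PEC differences among the 10 genes are therefore not evidence about them as a group. This holds for genes called, not overlapping or at a low unadjusted p.

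Among the other genes, 5 had manakin PEC groups that did not overlap without passing the test. ENSTGUG00000006125 was at 20.6, 11.5 and 28.3 RPKM in +T PEC and 81.0, 133 and 89.9 in -T PEC (log2 difference -2.33 ± 0.46, SE; limma adjusted p = 0.0595). ENSTGUG00000003948 was at 69.9, 14.9 and 38.8 RPKM against 150, 134 and 169 (log2 difference -2.09 ± 0.44, SE; limma adjusted p = 0.0712). ENSTGUG00000010073 was at 26.8, 6.21 and 36.1 RPKM against 75.9, 103 and 85.5 (log2 difference -2.18 ± 0.56, SE; limma adjusted p = 0.115). In these 3 genes the lowest value was that of the second +T bird, and the groups did not overlap.

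The gap went the other way in a pair of genes. ENSTGUG00000005888 was at 180, 305 and 465 RPKM in +T PEC and 61.4, 40.1 and 43.8 in -T PEC (log2 difference 2.60 ± 0.69, SE; limma adjusted p = 0.1198), and ENSTGUG00000000884 was at 93.2, 99.99 and 81.2 RPKM against 53.3, 38.0 and 50.8 (log2 difference 0.94 ± 0.24, SE; limma adjusted p = 0.118). By count, +T lay wholly below -T in 4 of the 10 genes, beside 17.4% of all genes, and wholly above in 2, beside 5.02%. An unadjusted p below 0.05 was found in 6 of the 10 genes and in 1193 of all 8989. ENSTGUG00000006125 passed under 3 of 13 alternatives, among them median-ratio scaling, which also moved the median of all genes from -0.18 to 0.00.

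In manakin SH, 0 of the 10 genes were called, beside 0.0111% called higher and 0.0111% lower with limma. With limma-voom on recovered reads 0 genes were called, and 1000 had an unadjusted p below 0.05. In the main fit 1036 of all 8989 genes, 5 of the 10 among them, had an unadjusted p below 0.05. The 5 became 1 in the fit on the 6 SH libraries (685 of all genes) and 1 without -T library 2 (742 of all genes). Of the 10 genes, 4 met the manakin limit only through the -T birds and 2 only through the +T birds. This count is therefore not evidence about the 10 genes as a group. ENSTGUG00000000590 was at 415, 305 and 247 RPKM in +T SH and 675, 716 and 661 in -T SH (log2 difference -1.11 ± 0.28, SE; limma adjusted p = 0.227). ENSTGUG00000000884 was at 133, 86.7 and 73.9 RPKM against 62.0, 62.8 and 59.5 (log2 difference 0.62 ± 0.24, SE; limma adjusted p = 0.372). These were the only genes of the 10 without overlap between +T and -T in SH, 1 lower (beside 6.8% of all genes) and 1 higher (beside 7.75%), and each had the same sign in PEC. ENSTGUG00000000590 met the manakin limit only through the -T birds and ENSTGUG00000000884 only through the +T birds. Their differences in SH are therefore not independent of the selection.

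The library that stood apart gave the lowest +T value in manakin SH of ENSTGUG00000001343, ENSTGUG00000005888, ENSTGUG00000002439 and ENSTGUG00000010073, at 61.3, 61.8, 247 and 16.6 RPKM. It gave the highest +T value in manakin SH of ENSTGUG00000006125 and ENSTGUG00000008854, at 84.3 and 228 RPKM. ENSTGUG00000005888 was at 206, 61.8 and 560 RPKM in +T SH and 101, 28.2 and 85.5 in -T SH (log2 difference 1.61 ± 0.69, SE; limma adjusted p = 0.400). Without that library the difference was 2.42 ± 0.57 (SE; limma adjusted p = 0.149), and none of the 10 genes was called. ENSTGUG00000005888 met the manakin limit only through the +T birds, so its difference is not independent of the selection.

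Treatment by muscle was not called for any manakin gene in the main limma fit (0% in either direction, 459 at an unadjusted p below 0.05, and 0 called with limma-voom on recovered reads, 415 below 0.05 unadjusted). This fit did not pair the 2 muscles of a bird. With the bird as replicate block, 1 gene was called larger in SH (limma adjusted p = 0.0345), and 0 of the 10 genes were called. In the main fit, ENSTGUG00000003948 had the smallest p of the 10. Beside the PEC values given above, in SH it was at 140, 109 and 68.5 RPKM in +T and 136, 125 and 113 in -T. The SH to PEC ratio was accordingly 2.00, 7.30 and 1.77 in the +T birds and 0.905, 0.932 and 0.670 in the -T birds, an interaction of 1.80 ± 0.62 on the log2 scale (SE; limma adjusted p = 0.818). As given above, this gene met the manakin limit only through the -T birds. The interaction was positive in 5 of the 10 genes, beside 69.8% of all genes. Since 4 of the 10 met the manakin limit only through the -T birds and 2 only through the +T birds, this count is not evidence about the group.

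The treatment differences of the species are set side by side here for the 4 called genes. ENSTGUG00000003948 was higher in T-only finch SH, where both groups carried testosterone and 1 had its receptor blocked, and its values in manakin PEC were lower in +T than in -T without passing the test. ENSTGUG00000000590, called lower in +T manakin PEC, differed by 0.10 and -0.04 on the log2 scale between the finch treatments in SH and PEC. ENSTGUG00000002439 and ENSTGUG00000002406, higher in T-only finch SH, had log2 differences between +T and -T of -0.92 ± 0.58 and -0.03 ± 0.31 in manakin SH and -0.27 ± 0.58 and -0.02 ± 0.31 in manakin PEC (SE), none of which passed. The treatments of the species are not the same contrast, and a difference between the species was not tested. As given above, ENSTGUG00000002439, ENSTGUG00000003948 and ENSTGUG00000002406 met the finch SH level only through the T-only libraries. ENSTGUG00000003948 and ENSTGUG00000000590 met the manakin limit only through the -T birds. The opposite directions of ENSTGUG00000003948 in the species come from different muscles, and they are therefore not independent of its selection. In manakin SH its treatment groups overlapped, with a ratio of the +T mean to the -T mean of 0.848. Its finch PEC groups overlapped too, and the T-only mean was 0.927 times the flutamide mean.

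**Figure D4:**
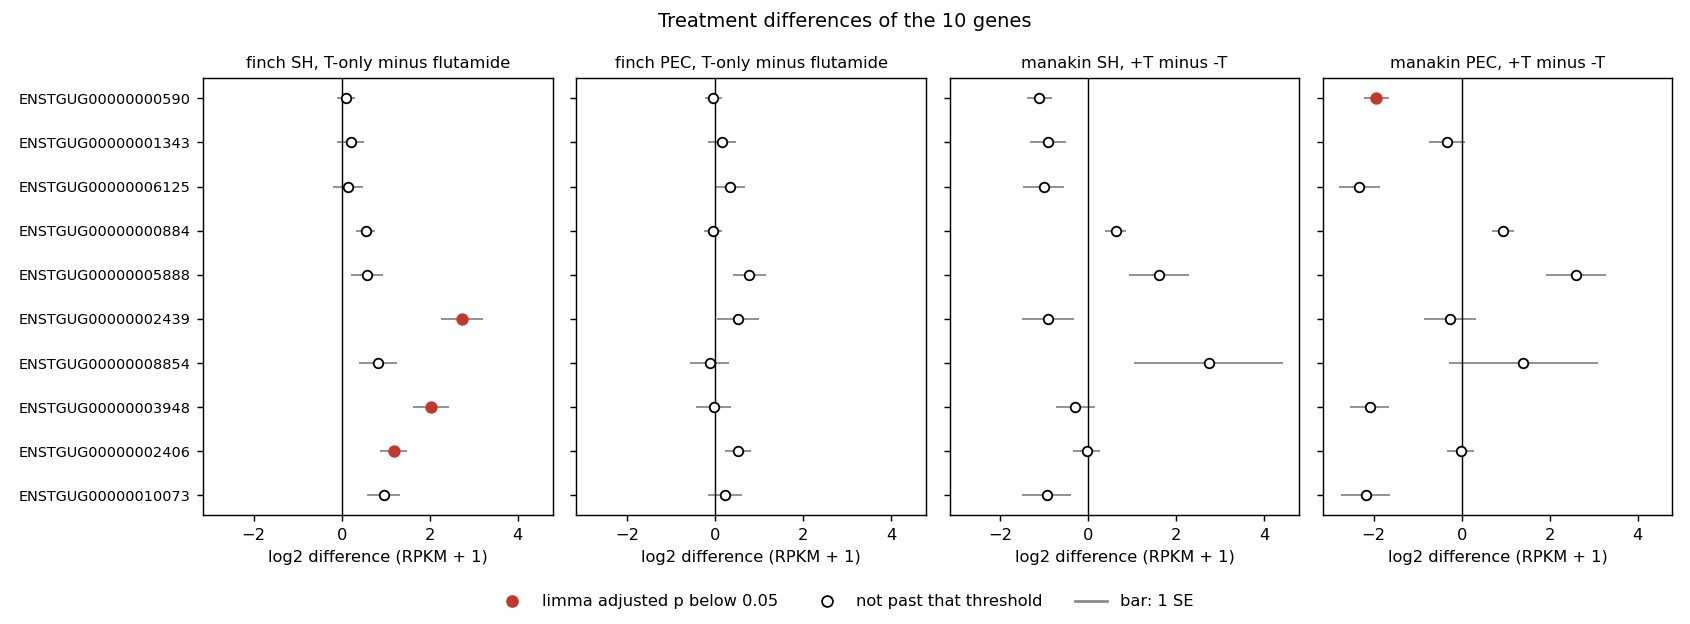
Log2 difference of RPKM + 1 between treatments for the 10 genes in each muscle and species, with bars of 1 SE from the limma fit; filled points passed an adjusted p below 0.05 over all genes. The filled points are ENSTGUG00000002439, ENSTGUG00000003948 and ENSTGUG00000002406 in finch SH, at 2.73, 2.02 and 1.18, and ENSTGUG00000000590 in manakin PEC, at -1.94.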

How the data were processed

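The deposited values were RPKM per gene, 1 list a library, per the file headers, which name Ensembl release 68. CASAVA, cutadapt and Bowtie 0.12.9 are named in the submitters' processing notes. The sources used here do not give the genome build or the counting. Genes not listed were read as 0. Read counts were recovered from the deposited RPKM as whole multiples, and 249311 of 249311 values came out whole (relative tolerance 1e-11). The gene lengths were derived so that the values come out whole, so this does not check the recovery. On simulated Poisson counts with 8000 genes, 99.99% of counts were right. Among listed genes, 60.3% to 71.7% of recovered counts were even in manakin libraries and 48.2% to 49.8% in finch ones. The simulation held no such excess, and its cause was not tested. Depth was 9742206 to 15434530 reads a library in manakin, and in finch 14341212 to 23458937.

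Treatments were tested with limma 3.58.1 (R 4.3.3) on log2(RPKM + 1) over the 12 libraries of a species, with a mean for each of 4 groups and a variance trend, for genes that reached 1 RPKM in 3 libraries or more. Tested on simulated finch SH data with 9374 genes, the fit called 58 of 110 genes changed 2-fold, 90 of 90 changed 4-fold and 15 unchanged ones. The simulation gave every gene the same dispersion and made all libraries independent. In the data, the SD in T-only SH ran from 3.85% of the mean in ENSTGUG00000000884 to 97.1% in ENSTGUG00000002439. The simulated shares are therefore not the power for these data. Python 3.11.15 with numpy 2.4.6, pandas 2.3.3, scipy 1.17.1 and matplotlib 3.10.9 was used elsewhere. Alternatives were another pseudocount, filters, scaling, limma-voom, fits on 6 libraries, replicate blocks and leaving out libraries.

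SH and PEC of 1 bird come from the same animal by the bird codes in the deposited files. Their deviations from group means correlated at 0.283 to 0.370 in finch and -0.147 to 0.240 in manakin. Replicates differed by 42.6 to 560 in chi-square per degree of freedom in the 24 pairs within groups, so none of these pairs was 1 library deposited again. The members and lists were chosen with earlier results of these data known. Without gene names, the rule for named genes gave at most 2 identifiers in each direction of a comparison. The members outside it were named after their values were seen. The marker and pathway lists were not tested.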

Additional observations from a re-analysis of the deposited data

Results flagged for a closer look

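In manakin, ENSTGUG00000003948 differed between muscles in opposite directions in the treatment groups. SH was above PEC in 3 of 3 +T birds and below it in 3 of 3 -T birds, and the interaction was 1.80 on the log2 scale. The test of this difference did not pass (limma adjusted p = 0.818, and 0.377 to 0.982 over 18 alternatives). The second +T bird, whose SH library stood apart, had the highest ratio, 7.30. The gene met the manakin limit of the rule only through the -T birds, so this pattern is not independent of its selection.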

How the results depend on the processing

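The number of genes that met the rule was 10. It was 47 with a finch fold of 1.5 in each bird and 3 with a fold of 3, 4 with a manakin ratio below 1 and 17 with a ratio below 1.5. It ranged from 9 to 20 when 1 bird was left out, 18 without flutamide bird 1 and 20 without flutamide bird 3. Median-ratio scaling also gave 10 genes, of which 6 were shared: ENSTGUG00000000590, ENSTGUG00000000884, ENSTGUG00000003948 and ENSTGUG00000006125 were lost. ENSTGUG00000003948 also left the set without any 1 of the -T birds, ENSTGUG00000006125 without -T bird 1 or 2 or +T bird 3, and ENSTGUG00000008854 without +T bird 2. With the manakin ratio taken as the median over birds, 10 genes met the rule and 8 were shared, ENSTGUG00000002439 and ENSTGUG00000003948 being lost. A level of 10 RPKM gave 7. In finch SH, 3 of the genes were called, and 1 to 3 when 1 library was left out. In manakin PEC, 1 was called, 2 with the stricter filter, 2 with median-ratio scaling, 0 in the fit on the 6 libraries compared, and 0 to 2 when 1 library was left out. All genes called ranged from 91 to 623 in finch SH, from 0 to 117 in manakin PEC and from 0 to 20 in manakin SH. In finch PEC, ENSTGUG00000008854 (log2 difference -0.12) ranged from -0.26 to 0.087 when 1 library was left out, turning positive without flutamide library 3 and without T-only library 3 (0.029). In finch treatment by muscle, ENSTGUG00000006125 (-0.20) ranged from -0.54 to 0.1004, turning positive without PEC flutamide library 1 (0.093) and without PEC T-only library 3. The cause of these changes was not tested.

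Between treatments a replicate number is only a number (deviations of the same number correlated at -0.243 to 0.072). With a replicate block on it, 2 of the genes were called in finch SH, 0 in finch PEC, 0 in manakin SH and 1 in manakin PEC. With the bird as replicate block, 0 were called in treatment by muscle in either species. The lowest finch PEC values rest on 2 to 16 reads in ENSTGUG00000005888, which limits the precision of its ratios.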
